A study of Mus musculus with 9 samples.

Results

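The comparison described here sets 3 libraries labelled GFP-TC against 3 labelled sECM only. These are 6 of the 9 bulk RNA-seq libraries in the series, taken by their treatment label, and the remaining 3 are labelled ThTC. All 9 carry the labels CT2A, a mouse glioma cell line, and day 5 after resection. The sECM only group had gel with no added cells, where sECM is commonly used for a synthetic extracellular matrix. The labels do not spell out GFP-TC, which is taken here as control tumour cells that secrete neither agent of the study. The ThTC group had CT2A cells that secrete interferon beta and GM-CSF. The tumours themselves were wildtype CT2A. The labels give no strain, age, sex, cell dose or vector, and GFP itself was not analysed here. Nor do they say that the libraries within a group were taken from different animals. The p-values below thus reflect the scatter of these samples alone, which may be technical. Because RNA came from whole tissue, fewer cells of a type and less RNA per cell cannot be told apart. The question of the comparison is what adding control cells to the gel did, before any secreted factor is considered.

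Macrophages that meet interleukin 4 or interleukin 13 take on a state often called alternative activation, in which the transcription factor STAT6 switches on a characteristic set of genes. Retnla and Retnlg belong to the resistin-like family of small secreted proteins. Of the lists used here, Retnlg is on that of neutrophil markers and not on that of alternative macrophage genes. Arg1 breaks down arginine, Mrc1 and Mgl2 are lectin receptors that take up glycoproteins, and Ccl24 and Ccl17 are chemokines that draw in eosinophils and T cells. Ear2 and Rnase2a are eosinophil-associated ribonucleases, whose transcripts can also be found in macrophages. Gliomas are rich in macrophages and microglia, and such genes are followed there as signs of tissue repair and of a suppressive environment.

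Several genes with large differences between the groups were of this kind, and promoters of some are shown first. RefSeq promoter entries of GRCm38.p6 were found for 11 of 16 genes that were lower with GFP-TC and are described further on. In the 250 bases before the start, 4 of the 11 held the STAT6-type palindrome TTCNNNNGAA, which reads the same on both strands. Of all 32851 such windows, counted per window and not per gene, 5.85% held it. The core site of the transcription factor PU.1, GAGGAA on either strand, was in 8 of the 11 genes and in 23.3% of all windows. The 16 genes were picked for their values, so the shares are not on like terms and were not compared. The 4 windows with the palindrome are printed 5′ to 3′ along the gene, with the match in capitals.
Retnlg, chr16:48872358-48872607, plus strand: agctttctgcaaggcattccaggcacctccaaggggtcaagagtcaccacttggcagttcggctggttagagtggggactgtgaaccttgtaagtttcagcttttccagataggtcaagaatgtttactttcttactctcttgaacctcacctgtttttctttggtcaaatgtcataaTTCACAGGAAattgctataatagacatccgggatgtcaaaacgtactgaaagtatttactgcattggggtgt
Retnla, chr16:48842359-48842608, plus strand: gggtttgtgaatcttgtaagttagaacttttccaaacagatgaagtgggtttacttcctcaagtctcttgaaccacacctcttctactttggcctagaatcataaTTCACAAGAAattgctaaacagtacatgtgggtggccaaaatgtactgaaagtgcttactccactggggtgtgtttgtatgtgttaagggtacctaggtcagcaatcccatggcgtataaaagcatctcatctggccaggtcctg
Ccl17, chr8:94810203-94810452, plus strand: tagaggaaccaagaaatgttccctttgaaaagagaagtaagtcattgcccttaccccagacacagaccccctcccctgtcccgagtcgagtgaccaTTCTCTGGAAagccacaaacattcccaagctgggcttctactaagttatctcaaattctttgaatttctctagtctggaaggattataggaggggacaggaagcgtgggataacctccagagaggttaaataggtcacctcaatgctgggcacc
Pdcd1lg2, chr19:29410669-29410918, plus strand: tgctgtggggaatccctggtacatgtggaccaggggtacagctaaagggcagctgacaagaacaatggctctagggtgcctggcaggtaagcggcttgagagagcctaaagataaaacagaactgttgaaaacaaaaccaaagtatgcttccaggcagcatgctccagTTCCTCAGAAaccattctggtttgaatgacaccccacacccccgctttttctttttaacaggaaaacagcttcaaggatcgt
The match ended 63 bases before the annotated start for Retnlg, 136 for Retnla, 145 for Ccl17 and 73 for Pdcd1lg2. Retnlg and Retnla are neighbours of the same family on chromosome 16, and their windows share stretches of sequence around the match. A match describes letters only and was not tested as a binding site.

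Levels are given in TPM, a measure of relative transcript abundance scaled to gene length and to each library's total. TPM keeps no read depth, so the depth behind a value is unknown beyond the 4.47 Gb per sample stated in the labels. The test covered 13829 of 18639 entries, those that reached 1 TPM in 3 libraries or more. Rnase2a, Retnla, Alox15 and Atp6v0d2 did so only in the 3 sECM only libraries, the group where they were high. Their p-values and separation are thus partly set by the filter. Differences are log2 fold changes of log2(TPM + 1), GFP-TC minus sECM only, and understate the change of low genes. The libraries were tumour tissue with brain and immune RNA. Summed TPM of 20 neuronal markers ran from 824.7 to 1246 in sECM only but was 385.3, 1117 and 3387 in GFP-TC replicates 1, 2 and 3. Monocyte and macrophage markers summed to 6050 to 7289 in sECM only and to 3596, 6509 and 9277 in GFP-TC. GFP-TC 1 was therefore lowest and GFP-TC 3 highest of the 6 libraries in both, and medians of lists that follow them are given with and without them. Labels name no batch, litter or date.

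No gene passed an adjusted p of 0.05 by limma with Benjamini-Hochberg adjustment, which is 0% of those tested. At an unadjusted p under 0.05 limma gave 129 genes, of which 69 were higher (0.499% of tested genes) and 60 were lower (0.434%). In 436 genes all 3 GFP-TC libraries lay above all 3 sECM only libraries (3.15%), and in 149 all lay below (1.08%). Over all tested genes, 71.8% were higher with GFP-TC and the median difference was 0.08. The balance of non-overlapping genes moved with the scaling: 25.5% of them were lower as deposited, 54.6% after median-of-ratios scaling and 50.7% after quantile scaling. The larger differences leaned the other way. Among non-overlapping genes, 23 were at least 2-fold lower and 4 at least 2-fold higher, and all 27 still did not overlap after either rescaling. Many of the 23 would not have entered the test without the sECM only libraries, where they were high. These include Retnlg, Ccl24, Ear2, Adamdec1, Alox15, Retnla, Rnase2a, Atp6v0d2, Tmem26 and Zfp973. Zfp965, among the 4, would not have entered without GFP-TC. Both counts and the separation are thus partly set by the filter.

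**Figure D1:**
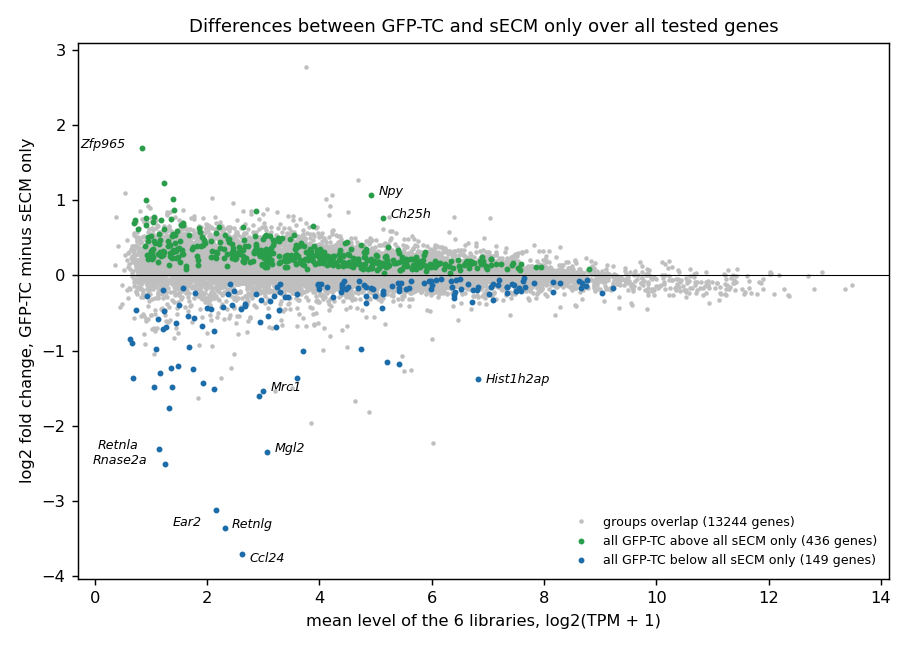
Each point is 1 of 13829 tested genes, with its mean level over the 6 libraries on the horizontal axis, log2(TPM + 1), and its log2 fold change, GFP-TC minus sECM only, on the vertical axis. Green points are the 436 genes with all GFP-TC libraries above all sECM only libraries, blue points the 149 with all below, and the points furthest from 0 among them are blue.

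Retnlg encodes a resistin-like protein of myeloid cells and lies on chromosome 16 (48872608 to 48874498, GRCm38.p6). It had the smallest p of all genes and stood at 23.5, 8.28 and 16.9 TPM in sECM only replicates 1, 2 and 3, and at 0.78, 0.44 and 0.45 TPM in GFP-TC. Every GFP-TC library was thus under 1 TPM and every sECM only library at 8.28 TPM or more. Of the ThTC libraries only ThTC 1 reached 1 TPM, so Retnlg entered the test through the sECM only group, where it was high. Mean levels were 16.2 ± 7.64 TPM (SD, n = 3) and 0.557 ± 0.193 TPM (SD, n = 3), 29.2-fold lower with GFP-TC. The log2 fold change was -3.37 (SE 0.36), with adjusted p = 0.127 by limma. It passed the threshold without sECM only replicate 2 (limma adjusted p = 0.0328) and with brain RNA as a covariate (limma adjusted p = 0.0155), and over all alternatives its log2 fold change ran from -4.55 to -3.06. The adjusted p by limma ran from 0.0155 to 1.0, and it was 0.651 with only the 6 libraries, 0.988 without sECM only 3 and 1.0 without GFP-TC 2.

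Other neutrophil transcripts were near 0 or overlapped between the groups, apart from S100a9. Of 18 neutrophil markers 12 were tested, 7 were higher and 5 lower, and the median was 0.10 (0.37 without GFP-TC 1 and -0.15 without GFP-TC 3). Ly6g was listed at 0 in all 6 libraries and Camp was at 0 in 5 of them. S100a9, which pairs with S100a8 in the neutrophil protein calprotectin, was low and on the other side: 0.24, 0.24 and 0.52 TPM in sECM only and 1.64, 0.79 and 2.92 TPM in GFP-TC. The summed markers ran from 98.15 to 142.3 TPM in sECM only and from 68.92 to 198.6 TPM in GFP-TC, with overlap.

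Retnla, the marker most used for alternatively activated mouse macrophages, was listed at 0 in all GFP-TC libraries and at 1.41, 2.81 and 12.2 TPM in sECM only. Its log2 fold change was -2.31 (SE 0.54, limma adjusted p = 0.997). The groups did not overlap, and the sECM only libraries differed among themselves by more than the lowest of them differed from 0. Counting could share reads between Retnla and Retnlg, which the deposited values do not settle.

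The list of alternative macrophage genes had 18 of 25 members tested. There were 12 lower and 6 higher ones. Their median difference was -0.85 on the log2 scale, against 0.08 over all genes. In 7 the groups did not overlap, all lower, and 9 were lower at an unadjusted p under 0.05 by limma. Over all tested genes these shares were 1.08% and 0.434%. Retnla and Alox15, among the 7, reached the filter's level in no group but sECM only. Ccl24 and Adamdec1, also among the 7, would not have entered the test without the sECM only libraries. The counts are thus partly set by the filter and cannot serve as support for a difference. None passed the adjusted threshold. The list was put together with earlier results of these data known, and the median was -0.26 without Adamdec1, Alox15, Mgl2 and Retnla. With every listed gene kept regardless of level it was -0.24. Leaving out GFP-TC 1 or GFP-TC 3 gave -0.73 and -0.88. Summed levels of the tested members overlapped, at 374.4 to 696.3 TPM in sECM only and 224.4 to 411.5 TPM in GFP-TC.

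Ccl24, the chemokine eotaxin-2, was at 6.21, 38.1 and 38.8 TPM in sECM only and at 0.17, 2.30 and 0.29 TPM in GFP-TC. Its mean was 30.1-fold lower with GFP-TC, and its log2 fold change of -3.71 (SE 0.83) was the most negative among non-overlapping genes of at least 5 TPM. Ccl17, which signals to T cells through CCR4, was at 3.37, 8.15 and 9.22 TPM against 1.67, 2.14 and 1.08 TPM. For both chemokines sECM only replicate 1 was the lowest of its group, and no GFP-TC library reached it.

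Among the lectin receptors, Mrc1, the mannose receptor CD206, was at 8.35, 12.9 and 18.4 TPM in sECM only and at 2.21, 5.48 and 4.01 TPM in GFP-TC. The mean was 3.39-fold lower (log2 fold change -1.53, SE 0.41). Mgl2, a galactose-type lectin of macrophages and dendritic cells, was at 10.6, 25.5 and 21.2 TPM against 0.44, 7.58 and 3.17 TPM (log2 fold change -2.35, SE 0.77). Groups were separate for both, and GFP-TC 1 held the lowest value of each. Clec7a, the beta-glucan receptor Dectin-1, was named after its values were seen and is far more abundant: 48.8, 82.6 and 62.9 TPM against 14.2, 42.7 and 33.2 TPM.

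Arg1, the arginase, stood at 77.3, 178 and 198 TPM in sECM only and at 12.7, 88.0 and 21.3 TPM in GFP-TC. The groups overlapped, since GFP-TC 2 lay above sECM only 1, and the log2 fold change was -2.23 (SE 0.71, limma adjusted p = 0.997). Without GFP-TC 1 it was -1.66.

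Adamdec1 and Alox15 of the set were low in level, and Mmp12 and Pdcd1lg2, given with them, belong to other lists. Adamdec1, a metalloprotease of macrophages, was at 3.08, 3.97 and 3.84 TPM in sECM only and at 0.09, 0.79 and 0.30 TPM in GFP-TC, and sECM only values were close together. Alox15, a lipoxygenase induced by interleukin 4, was at 3.79, 1.65 and 2.41 TPM against 0.35, 0.54 and 0.40 TPM. Mmp12, the macrophage elastase, was at 13.6, 20.7 and 22.2 TPM against 4.65, 13.1 and 4.31 TPM. Pdcd1lg2, which encodes the checkpoint ligand PD-L2, was at 3.58, 2.68 and 7.16 TPM against 0.25, 2.42 and 1.39 TPM. All 4 genes were lower in every GFP-TC library than in any sECM only library, by a narrow margin for Mmp12 and Pdcd1lg2.

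Other members of the list overlapped between the groups. Chil3, a chitinase-like protein, was at 3.28 to 17.4 TPM in sECM only and at 7.26 to 21.8 TPM in GFP-TC. Il4ra, the receptor chain for interleukins 4 and 13, was at 21.8 to 31.1 TPM and at 15.8 to 38.4 TPM. The ligands themselves were below the filter. Il4 was at 0.21 to 0.41 TPM in sECM only and listed at 0 in all GFP-TC libraries, and Il13 was at 0.09 to 1.20 TPM against 0 to 0.51 TPM.

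Ear2 was at 3.44, 16.9 and 27.5 TPM in sECM only and at 0.16, 0.91 and 0.55 TPM in GFP-TC, 29.5-fold lower in the mean (log2 fold change -3.12, SE 0.67, limma adjusted p = 0.997). Rnase2a, named after its values were seen, was at 1.19, 7.5 and 8.99 TPM in sECM only and listed at 0 in all GFP-TC libraries. Its log2 fold change was -2.51 (limma adjusted p = 0.997). It passed the threshold in 1 alternative, without sECM only replicate 1 (limma adjusted p = 0.0289, log2 fold change -3.20). In the others its limma adjusted p was 0.18 to 1.0. Since Rnase2a entered the test only through the sECM only group, that pass cannot serve as support for a difference. Ear2 and Rnase2a belong to a multigene family of similar sequences, so their separate values are uncertain.

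Of 18 eosinophil and mast cell markers 11 were tested and all 11 were lower, with a median of -1.05. It was -0.44 with all listed genes kept regardless of level. Alox15 is also on the alternative list. Groups did not overlap in Ear2 and Alox15 only, both lower (1.08% over all tested genes). Summed markers were 40.54 to 149.4 TPM in sECM only and 9.44 to 92.15 TPM in GFP-TC. Epx, the eosinophil peroxidase that defines these cells, was at 0 to 0.12 TPM in sECM only and 0.06 to 0.13 TPM in GFP-TC, near 0 in both. Prg2, Ear1 and Ear6 were at 0 in all GFP-TC libraries and at most 0.54 TPM in sECM only. Siglecf was at 1.20 to 2.08 TPM and 0.34 to 1.43 TPM.

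The mast cell genes followed single libraries. Tpsb2, a mast cell tryptase, was at 27.4, 3.93 and 48.6 TPM in sECM only and at 0.31, 6.89 and 29.0 TPM in GFP-TC, so the groups overlapped widely. Its log2 fold change was -1.495 and was -0.31 without GFP-TC 1, and the median of the whole marker list went to -0.31 as well. The part of eosinophils and mast cells in the differences was not tested.

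**Figure D2:**
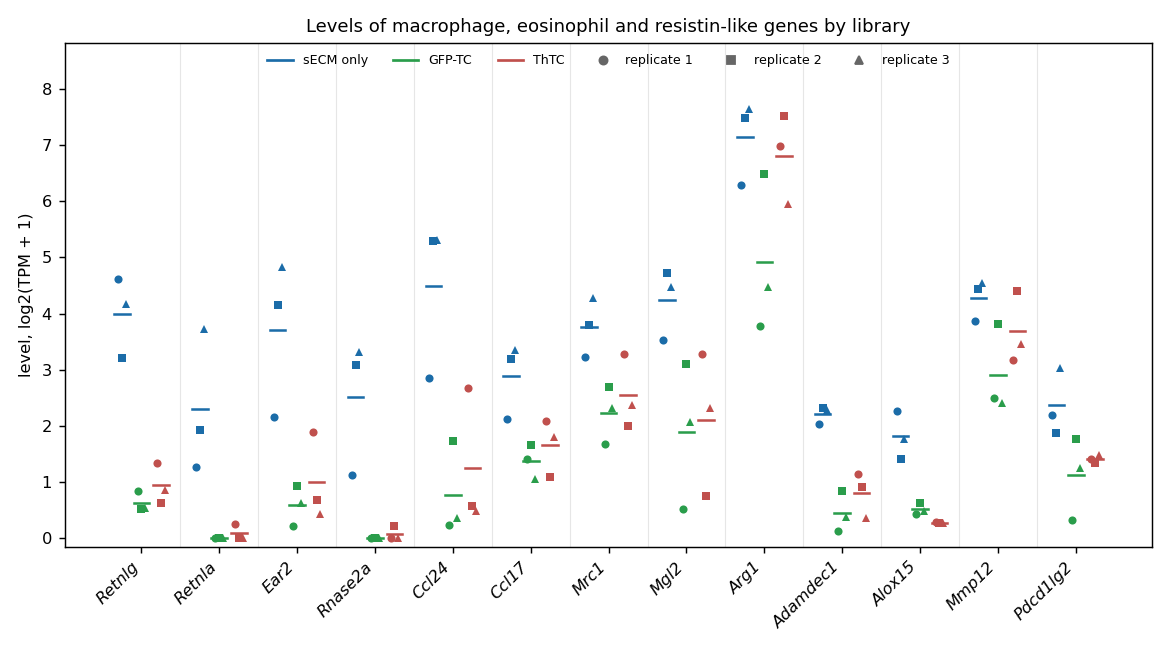
Levels of 13 genes as log2(TPM + 1) in each of the 9 libraries, with colour for the group, shape for the replicate number and a bar at the group mean. The sECM only points lie above all GFP-TC points for 12 of the 13 genes and Arg1 overlaps, while ThTC 1 is the highest ThTC library for Retnlg, Ear2, Ccl24, Mrc1 and Mgl2.

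General macrophage RNA did not separate the groups. Of 19 monocyte and macrophage markers 9 were higher and 10 lower, with a median of -0.03. Mrc1 was the only one without overlap (lower, 1.08% over all tested genes). The median was 0.31 without GFP-TC 1 and -0.26 without GFP-TC 3. C1qc, a subunit of complement C1q made by macrophages and microglia, was at 852, 646 and 774 TPM in sECM only and at 308, 614 and 923 TPM in GFP-TC. Ly6c2, a marker of inflammatory monocytes, was at 135, 97.9 and 79.3 TPM against 71.4, 181 and 231 TPM. Of 15 microglia markers 10 were higher (median 0.07, with 0.43 without GFP-TC 1 and -0.26 without GFP-TC 3), and Tmem119 was at 44.2 to 59.1 TPM against 51.4 to 80.8 TPM. Groups overlapped for these 3 genes, and GFP-TC 1 was the lowest and GFP-TC 3 the highest GFP-TC library each time.

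Other non-overlapping genes with a 2-fold lower value, named after their values were seen, included several of myeloid cells. Tarm1, a receptor of granulocytes and macrophages that the rule did name, was at 7.31, 13.3 and 18.7 TPM in sECM only and 0.96, 5.57 and 5.47 TPM in GFP-TC. Atp6v0d2, a subunit of the vacuolar proton pump in macrophages and osteoclasts, was at 1.12, 3.26 and 3.61 TPM against 0.13, 0.19 and 0.43 TPM. It entered the test only through the sECM only group, so its separation is partly set by the filter. Tmem26, at 1.44, 2.43 and 6.16 TPM against 0.37, 0.77 and 0.93 TPM, and Anpep, the surface aminopeptidase CD13, were on the same side. Anpep was at 15.5, 16.3 and 21.0 TPM against 2.27, 15.3 and 13.5 TPM, so 1 library, GFP-TC 1, carried most of that difference. Klra17, H2-M2 and Apol7c were between 1.96 and 10.8 TPM in sECM only and between 0.05 and 2.42 TPM in GFP-TC.

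The chemokine list, which shares Ccl24, Ccl17 and Ccl8 with the alternative list, was mixed. Of 28 tested chemokine and receptor genes 13 were higher and 15 lower (median -0.05, with 0.27 without GFP-TC 1 and -0.35 without GFP-TC 3). In 4 the groups did not overlap, all lower (1.08% over all tested genes): Ccl24, Ccl17, Ccl6 and Ccl9. Ccl6 was at 27.9, 41.0 and 43.0 TPM in sECM only and at 14.0, 23.9 and 17.6 TPM in GFP-TC, and Ccl9 was at 9.19 to 11.9 TPM against 7.08 to 7.43 TPM. Both are C-C chemokines of myeloid cells. Ccl8, a monocyte attractant also on the alternative list, was at 41.0, 10.9 and 45.4 TPM against 1.20, 8.90 and 16.7 TPM (log2 fold change -1.97, and -1.10 without GFP-TC 1), with overlap. Cxcl10, the interferon-induced ligand of CXCR3, was at 304, 305 and 454 TPM against 269, 472 and 509 TPM.

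Replication-dependent histone genes gave a second kind of lower gene. Hist1h2ap was at 257, 129 and 182 TPM in sECM only and at 98.3, 45.7 and 74.3 TPM in GFP-TC, 2.60-fold lower (log2 fold change -1.38, SE 0.38). Hist1h2ao was at 84.0, 39.8 and 46.7 TPM against 24.97, 20.5 and 25.9 TPM, 2.39-fold lower. Both encode histone H2A and have near-identical copies in the same cluster, so the assignment of reads among them is uncertain. The fixed histone list did not share the difference: of 12 tested members 6 were higher and 6 lower, with a median of -0.02. Hist1h2ac and Hist1h4c did not overlap and were lower (1.08% over all tested genes). Yet Hist1h4c lost this separation under either rescaling and Hist1h2ac under quantile scaling.

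Proliferation genes differed little. Of 33 cell cycle genes 12 were higher and 21 lower, with a median of -0.06. Mki67, a marker of dividing cells, was at 41.2, 49.8 and 64.9 TPM in sECM only and 47.7, 57.8 and 50.5 TPM in GFP-TC (log2 fold change 0.02, SE 0.18, and -0.07 after median-of-ratios scaling). Pold4, a subunit of DNA polymerase delta, was 1.24-fold lower, at 90.1, 87.1 and 102 TPM against 76.0, 71.6 and 77.9 TPM. The groups of Pold4 were separate, by a small step beside its level.

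Genes higher with GFP-TC had small differences. The rule named 8 by p, with log2 fold changes from 0.24 to 0.52. Arhgef28, an exchange factor for RhoA, was at 7.14, 8.20 and 7.19 TPM in sECM only and at 10.4, 12.6 and 10.2 TPM in GFP-TC (log2 fold change 0.50, SE 0.14, limma adjusted p = 0.997). Cdh10, a cadherin of neurons and brain endothelium, was at 6.48, 7.26 and 6.85 TPM against 9.24, 9.16 and 10.8 TPM. Mex3b, an RNA-binding protein, was at 30.7, 34.0 and 30.4 TPM against 38.4, 49.1 and 37.2 TPM. The remaining 5 were Wdyhv1, Zfp566, Aarsd1, Csrnp2 and Arl15, and their means were 1.19-fold to 1.51-fold higher. The separation of Aarsd1 and Mex3b was lost after either rescaling, and that of Arhgef28, Cdh10, Zfp566 and Arl15 after quantile scaling.

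By size, the rule added 8 higher genes. Npy, the neuropeptide Y of neurons, was at 22.1, 20.8 and 17.2 TPM in sECM only and at 23.4, 54.5 and 61.6 TPM in GFP-TC (log2 fold change 1.07, SE 0.65). Ch25h, which makes the antiviral sterol 25-hydroxycholesterol, was at 26.7, 21.8 and 30.3 TPM against 35.6, 48.1 and 52.6 TPM (log2 fold change 0.76, SE 0.30). Smoc2, a matrix protein, was at 6.15, 4.90 and 2.79 TPM against 9.65, 7.29 and 9.66 TPM (log2 fold change 0.85, SE 0.36). GFP-TC 1 held the lowest GFP-TC value of Npy and Ch25h, next to the sECM only values for Npy, while GFP-TC 2 was lowest for Smoc2. Efna3, Fsd1, Ogn, Grb14 and Cpeb2 had log2 fold changes of 0.52 to 0.66, and Ogn and Grb14 lost their separation after quantile scaling.

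Of the genes under 5 TPM, Nme5 and Ecel1 were more than 2-fold higher without overlap and were named after their values were seen. Nme5, a gene of motile cilia, was at 0.81, 0.30 and 0.54 TPM against 1.31, 2.35 and 4.95 TPM. Ecel1, a neuronal peptidase, was at 0.75, 1.18 and 0.66 TPM against 1.23, 4.66 and 3.09 TPM. Markers of ependymal and neuronal RNA differed between the libraries as well, and their part in these values was not tested.

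A pair of zinc finger genes on chromosome 2, also named after their values were seen, was on in some libraries and off in others. Zfp965 (175470025 to 175480553) was listed at 0 in the 3 sECM only libraries and was at 1.46, 3 and 2.41 TPM in GFP-TC. Zfp973 (176670522 to 176681090) was at 2.06, 1.5 and 1.25 TPM in sECM only and listed at 0 in the 3 GFP-TC libraries. Among the ThTC libraries, ThTC 1 was at 0 for Zfp965 and 2.27 TPM for Zfp973, while ThTC 2 and 3 were at 2.05 and 2.14 TPM and at 0. ThTC 1 thus had the sECM only pattern of the pair. The genes belong to a family of near-identical copies, so the split of reads between copies is uncertain.

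ThTC 1 was also the highest ThTC library in 17 of the 23 lower genes described above, against 3 each for ThTC 2 and ThTC 3. It lay above all GFP-TC libraries in 17 of the 23, and ThTC 2 and ThTC 3 did so in 7 each. Hist1h2ap was at 180 TPM in ThTC 1 and at 96.5 and 82.9 TPM in ThTC 2 and 3, Ear2 at 2.69 against 0.61 and 0.34 TPM, and Ccl24 at 5.41 against 0.48 and 0.40 TPM. For Retnlg it was nearer to GFP-TC, at 1.53 TPM, than to the lowest sECM only library. With no batch in the labels, a feature of the libraries shared by sECM only and ThTC 1 was not tested, and one shared by the 3 sECM only libraries cannot be told apart from the treatment.

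**Figure D3:**
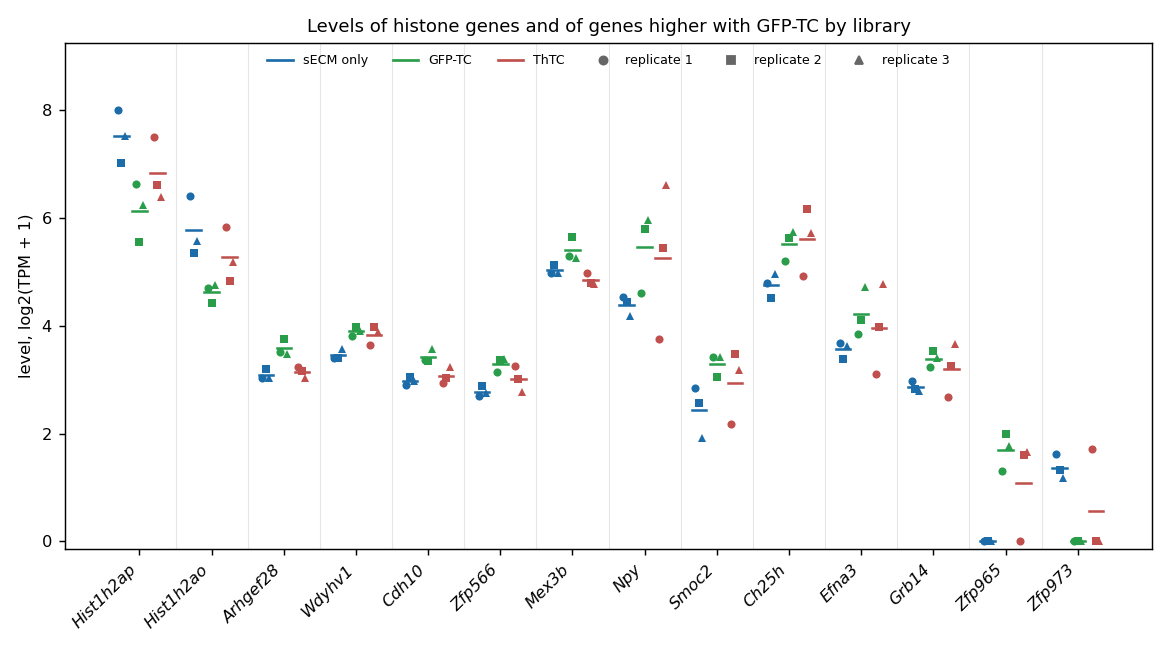
Levels of 14 genes as log2(TPM + 1) in each of the 9 libraries, with colour for the group, shape for the replicate number and a bar at the group mean. The pair on the right, Zfp965 and Zfp973, is at 0 in opposite libraries, and ThTC 1 sits with sECM only for both and is the highest ThTC library for Hist1h2ap and Hist1h2ao.

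Interferon-inducible genes were slightly higher in the GFP-TC mean. In the type I interferon list 38 of 43 tested members were higher, the median was 0.14, and 1 member was higher without overlap (3.15% over all tested genes). Over all tested genes 71.8% were higher and the median was 0.08. Ifit2, an antiviral protein, was at 50.01, 50.7 and 71.2 TPM in sECM only and 51.8, 80.7 and 78.5 TPM in GFP-TC. Ifi27l2a, another interferon-induced gene, was at 192, 114 and 139 TPM against 147, 122 and 142 TPM, with overlap. Of 26 guanylate-binding, immunity-related GTPase and other interferon-gamma-inducible genes 25 were higher, with a median of 0.25 and none separate. Irgm1 was at 295, 227 and 307 TPM against 189, 525 and 457 TPM, and Gbp10 at 7.04, 3.31 and 7.16 TPM against 1.79, 19.95 and 17.3 TPM. GFP-TC 1 was lowest and GFP-TC 2 and 3 highest in both genes. After median-of-ratios scaling the medians of the type I and interferon-gamma-inducible lists were 0.05 and 0.16, against -0.008 over all tested genes. Without GFP-TC 1 the medians were 0.35 and 0.84, and without GFP-TC 3 they were -0.01 and -0.02, so the sign rests on single libraries.

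The secreted factors of the study were below the filter. Ifnb1 had means of 0.160 TPM in sECM only and 0.213 TPM in GFP-TC (exact two-sided permutation p = 0.7), and Csf2, which encodes GM-CSF, 0.147 and 0.0467 TPM (exact two-sided permutation p = 0.7). With 3 against 3 samples this test cannot go below 0.1. Ifna4 was above 0 in 1 library, sECM only 1.

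Antigen presentation and lymphocyte genes followed the libraries. Of 10 MHC class II genes 8 were lower (median -0.25), and H2-Aa was at 694, 176 and 355 TPM in sECM only and 79.3, 327 and 554 TPM in GFP-TC. Of 21 T cell genes 13 were lower (median -0.05), and Cd8a was at 15.2, 2.29 and 5.58 TPM against 0.71, 10.9 and 14.4 TPM. Of 21 cytotoxic genes 16 were lower (median -0.12). Leaving out GFP-TC 1 turned these medians to 0.36, 0.48 and 0.20, and without GFP-TC 3 they were -0.64, -0.41 and -0.34. Gzmf, a granzyme of activated killer cells, was at 172, 26.8 and 93.8 TPM against 13.9, 58.5 and 36.3 TPM, with overlap. Gzmk was separate but low, at 0.73 to 1.13 TPM against 0.14 to 0.66 TPM.

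Of 14 checkpoint genes 7 were higher and 7 lower. Their median was -0.03, with 0.37 when GFP-TC 1 was left out and -0.38 when GFP-TC 3 was. Pdcd1lg2, described above, was the only one without overlap (lower, 1.08% over all tested genes). Cd274, which encodes PD-L1, was at 28.1, 19.9 and 38.7 TPM in sECM only and 12.1, 48.6 and 51.0 TPM in GFP-TC. Of the ligands of PD-1, Cd274 therefore overlapped and Pdcd1lg2 was separate, and the difference between them was not tested. Of 7 B and plasma cell genes 6 were lower (median -0.31), and Cd79b, a B cell receptor subunit, was at 4.97 to 6.97 TPM against 3.82 to 4.56 TPM, a separation lost after quantile scaling.

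**Figure D4:**
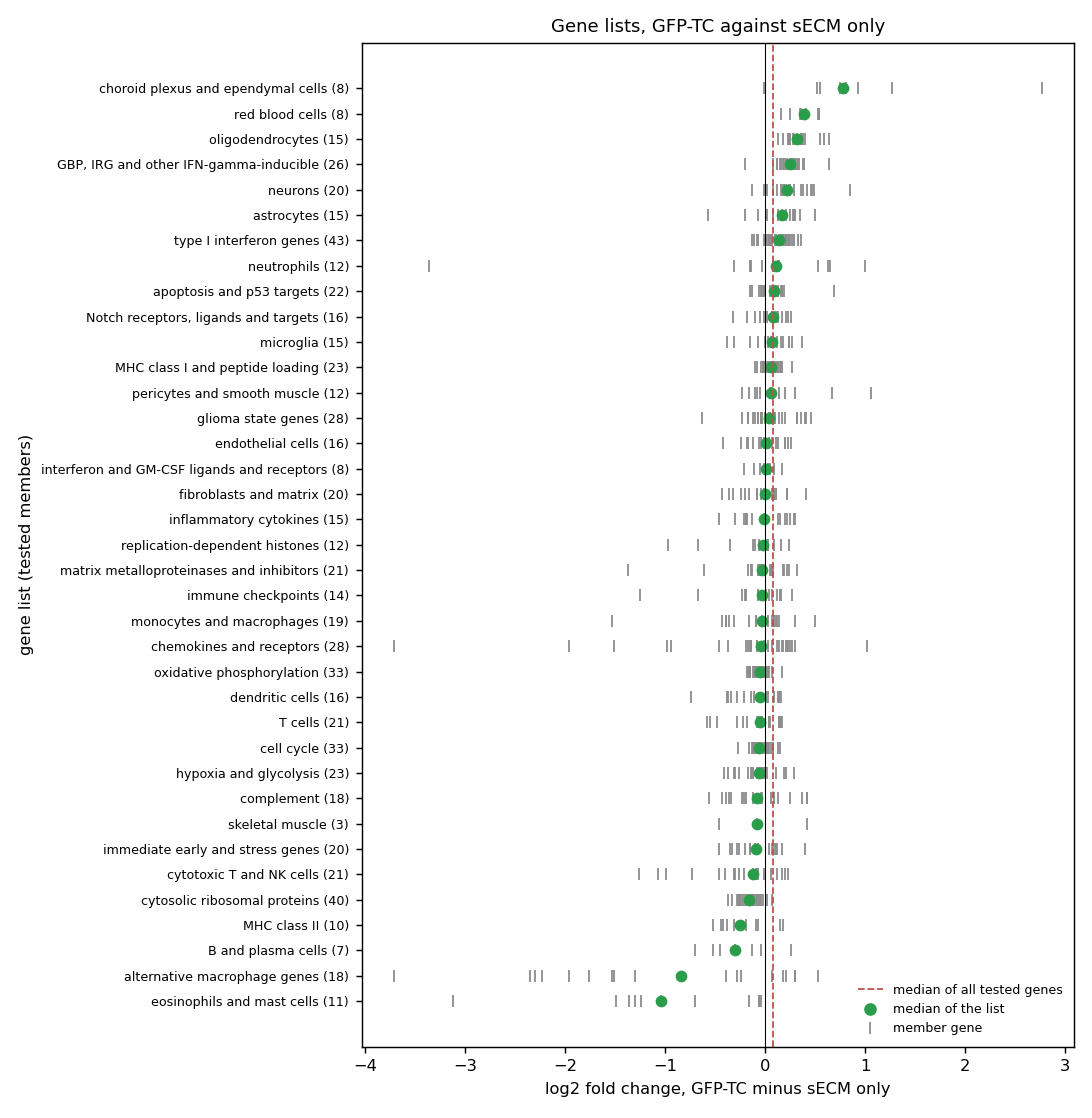
Each grey tick is the log2 fold change, GFP-TC minus sECM only, of 1 tested gene of the list named on the left, each green point is the list's median, and the dashed line is the median of all tested genes, 0.08. The eosinophil and mast cell list and the alternative macrophage list lie furthest to the left, at -1.05 and -0.85 (-0.44 and -0.24 with no filter on level). Choroid plexus genes lie furthest to the right, at 0.78 (0.50 with no filter on level).

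Genes of the tumour and its matrix showed little difference. Of 28 glioma state genes 16 were higher and 12 lower (median 0.04). Sox2, a stem cell factor of glioma, was at 180, 211 and 199 TPM in sECM only and 219, 240 and 133 TPM in GFP-TC. Of 20 fibroblast and matrix genes 10 were higher and 10 lower, and Col1a1 was at 27.0 to 44.7 TPM against 28.0 to 29.7 TPM. Tagln, an actin-binding protein of smooth muscle, was at 18.0, 12.2 and 7.55 TPM against 16.3, 36.6 and 29.0 TPM (log2 fold change 1.06, SE 0.63), and its groups overlapped. Of 16 endothelial genes 8 were higher and 8 lower (median 0.01, with 0.16 without GFP-TC 1 and -0.16 without GFP-TC 3).

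Among Notch genes, Hes1, a target repressor of the pathway, was at 154, 157 and 147 TPM in sECM only and 142, 125 and 102 TPM in GFP-TC (log2 fold change -0.32, SE 0.13, limma adjusted p = 0.997). It was the only one of 16 without overlap (lower, 1.08% over all tested genes), and its groups overlapped after median-of-ratios scaling. The receptor Notch3 of pericytes was at 9.40 to 10.1 TPM against 8.46 to 9.83 TPM. In the apoptosis list the only separate gene was Trp53 (lower, 1.08% over all tested genes). It was at 430 to 455 TPM against 417 to 427 TPM, a 1.05-fold step that rescaling removed. Fas, the death receptor, was at 2.59, 1.03 and 3.10 TPM against 2.34, 4.6 and 5.66 TPM.

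Brain lists were higher in the mean and scattered widely among GFP-TC libraries. Of 15 oligodendrocyte genes all 15 were higher (median 0.32), as were 18 of 20 neuronal genes (0.22) and 12 of 15 astrocyte genes (0.17). Over all tested genes 71.8% were higher. Snap25, a synaptic protein, was at 90.2, 48.8 and 61.5 TPM in sECM only and 18.5, 76.8 and 314 TPM in GFP-TC. Mbp, a myelin protein, was at 372, 160 and 233 TPM against 88.1, 247 and 1010 TPM. The extremes of both genes were GFP-TC 1 and GFP-TC 3. Without GFP-TC 3 the medians were -0.47, -0.52 and -0.43, and without GFP-TC 1 they were 1.05, 1.13 and 0.92.

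Choroid plexus genes had the highest median of the lists, 0.78 over 8 tested genes. It was 0.50 with all 14 listed genes kept regardless of level. Ttr, the transthyretin of choroid plexus, was at 62.6, 0.18 and 0.90 TPM in sECM only and 384, 1.42 and 47.5 TPM in GFP-TC, so it marked single libraries of both groups. All 8 red cell genes were higher, with a median of 0.38. It was 0.18 without GFP-TC 1, 0.15 without GFP-TC 2 and 1.05 without GFP-TC 3. Summed levels were 449 to 773.3 TPM in sECM only against 1071, 1297 and 300 TPM in GFP-TC, so GFP-TC 3 lay below every sECM only library. Bpgm, the enzyme that makes 2,3-bisphosphoglycerate in red cells, was separate, at 19.2 to 21.2 TPM against 22.1 to 28.5 TPM.

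Cytosolic ribosomal protein genes were lower in 38 of 40 cases, with a median of -0.16 and none separate. Rps29 was at 1749, 1625 and 1509 TPM in sECM only and 1531, 1264 and 1226 TPM in GFP-TC. The summed list was at 76104 to 89198 TPM against 93394, 64557 and 65055 TPM, so GFP-TC 1 had the highest sum of the 6. Of 33 oxidative phosphorylation genes 27 were lower (median -0.05). Ndufa2 alone was separate (lower, 1.08% over all tested genes), at 87.0 to 107 TPM against 82.8 to 86.4 TPM. That separation was lost after either rescaling. Of 20 immediate early and stress genes, which respond to handling of tissue, 12 were lower (median -0.09).

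**Figure D5:**
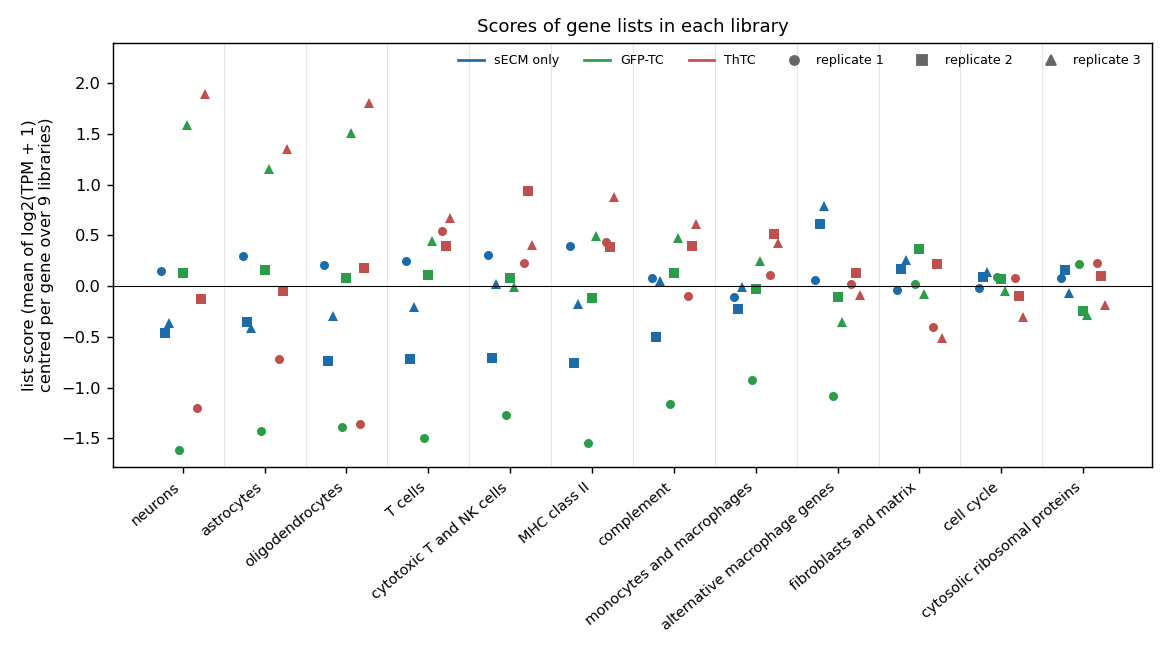
Scores of 12 gene lists in each library, where a score is the mean of log2(TPM + 1) of the tested members after centring each gene over the 9 libraries. In the brain and most immune lists GFP-TC 1 is the lowest of the 6 libraries and GFP-TC 3 is high, whereas for alternative macrophage genes all 3 sECM only libraries lie above all 3 GFP-TC libraries. That list was put together with earlier results of these data known, and some members entered the test only through sECM only. Its summed TPM overlapped between the groups.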

How the data were processed

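RNA was measured by sequencing in 9 mouse tissue libraries, 3 per treatment label. Per the file headers, the authors deposited TPM values per gene symbol, with equal library totals up to rounding. The submitters' processing notes name HISAT, GRCm38.p6 and mm10. For the quantifier, annotation and strand setting, nothing is given in the sources used here. A TPM value is relative to each library's total, so a rise of abundant genes lowers the rest. Groups came from the treatment label.

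Values were analysed as log2(TPM + 1) with limma 3.58.1 in R 4.3.3, with an intensity trend, all 9 libraries in 1 fit and Benjamini-Hochberg adjustment over 13829 genes, at a threshold of 0.05. Plin2 had 2 entries, kept apart, and 239 entries were at 0 everywhere. Genes under the filter were compared by exact permutation. No set test was run: lists are described by counts and medians over tested members. Steps were tested on simulated data. Figures used Python 3.11.15 and matplotlib 3.10.9.

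Genes and lists were chosen with earlier results of these data known. As no gene was called, the rule named, per direction, the 8 genes of smallest p and the 8 of largest change among those without overlap, with a mean of 5 TPM or more and an established symbol. It added 3 per list by p and 15 fixed genes. Alternatives covered pseudocount, filter, scaling, trend, weights, covariate, replicate block and each library left out. Positions and promoters came from RefSeq tables of GRCm38.p6 and count from 1.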

Additional observations from a re-analysis of the deposited data

How the results depend on the processing

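Of 99 genes followed through the alternatives, 89 kept the direction of their difference in each of 22 alternatives that tested them. Calls by limma at an adjusted p of 0.05 went from 0 to 1 gene, Retnlg, with brain RNA as a covariate, and to between 0 and 1 when single libraries were left out (Retnlg without sECM only 2, Rnase2a without sECM only 1). Neither gene would have entered the test without the sECM only libraries. For pairing, each gene's group mean was first subtracted, and the deviations left were correlated between GFP-TC and sECM only libraries. Deviations cancel out within a group, so values of both signs arise. Same-numbered libraries gave -0.53, -0.14 and -0.19, so the numbers were not taken as pairs. The deviations of GFP-TC 1 correlated best with those of sECM only 2 (0.51), and those of GFP-TC 3 with sECM only 1 (0.61). With a replicate block over 9 libraries 1 gene was called (Retnlg, limma adjusted p = 0.0497). With a replicate block over 6 libraries 0 were called and 78 genes had an unadjusted p under 0.05. That count was 129 as reported, 297 with no filter, 461 with the brain covariate and 3173 with sample quality weights, a fit that stopped before reaching its tolerance. It ran from 80 to 1314 when libraries were left out, the highest without GFP-TC 1 and the lowest without sECM only 1.

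Separate genes numbered 436 higher and 149 lower. With median-of-ratios scaling they numbered 283 and 340, and with quantile scaling 271 and 279. Of the deposited sets, 163 and 97 stayed separate in the same direction under the first and 68 and 84 under the second. When single libraries were left out, which leaves fewer samples to separate, there were 634 to 4380 higher and 272 to 1032 lower genes, with most of both without GFP-TC 1.

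Of 37 list medians, 32 moved by less than 1 SD between replicates in every alternative, though 29 changed sign in at least 1. Those that moved further were red blood cells (0.152 to 1.05 with libraries left out, the highest without GFP-TC 3), skeletal muscle (-0.188 after quantile scaling, -0.221 to 0.174 with libraries left out), replication-dependent histones (-0.186 to 0.076 with libraries left out, the lowest without GFP-TC 3), cell cycle (-0.15 after median-of-ratios scaling) and alternative macrophage genes (-0.24 with no filter, and -0.26 without the 4 genes noted earlier, an alternative chosen after seeing the data).

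Single genes that changed sign were Mki67 (-0.066 after median-of-ratios and -0.045 after quantile scaling), Cd8a (0.669 with quality weights), Snap25 and Mbp (-0.069 and -0.096 with the brain covariate) and Sox2 (0.102 with weights, 0.010 with the covariate). With single libraries left out, log2 fold changes that crossed 0 ran from -0.130 to 0.192 for Mki67, -0.646 to 0.937 for Cd8a, -0.753 to 1.253 for Snap25, -0.698 to 1.054 for Mbp, -0.201 to 0.224 for Sox2, -1.118 to 0.276 for H2-Aa, -0.790 to 0.001 for C1qc, -0.086 to 0.012 for Notch3, -0.181 to 0.810 for Cd274 and -0.256 to 0.120 for Ifi27l2a. The extremes came from leaving out GFP-TC 1 or GFP-TC 3, except for Mki67, the low end of Sox2 and both ends of Ifi27l2a. The causes were not tested.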

Other observations

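Lists not described above had medians close to the 0.08 of all tested genes or a little below it. Of 16 dendritic cell genes 8 were higher and 8 lower (median -0.05, with 0.20 without GFP-TC 1 and -0.31 without GFP-TC 3), and none was separate. Batf3, a factor of cross-presenting dendritic cells, was at 8.58, 5.77 and 8.51 TPM in sECM only and 2.45, 4.04 and 6.50 TPM in GFP-TC, with GFP-TC 3 alone inside the sECM only range. Of 23 MHC class I and peptide loading genes 16 were higher (median 0.06, with 0.21 without GFP-TC 1 and 0.001 without GFP-TC 3). Of 18 complement genes 7 were higher and 11 lower (median -0.08, with 0.35 without GFP-TC 1 and -0.37 without GFP-TC 3). Of 15 inflammatory cytokine genes 7 were higher (median -0.02, with 0.29 without GFP-TC 1 and -0.06 without GFP-TC 3), and the alarmin Il33 was at 85.7 to 113 TPM against 68.1 to 96.6 TPM.

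Of 23 hypoxia and glycolysis genes 6 were higher and 17 lower, with a median of -0.06. Adm, the vasodilator adrenomedullin that hypoxia induces, was the only separate one (lower, 1.08% over all tested genes). It was at 6.64, 5.76 and 6.43 TPM in sECM only and 4.27, 4.98 and 4.57 TPM in GFP-TC. Of 21 matrix metalloproteinase and inhibitor genes 9 were higher and 12 lower (median -0.03). Mmp12 alone was separate (lower, 1.08% over all tested genes). The 3 skeletal muscle genes tested summed to 4.26 to 5.23 TPM against 4.42 to 5.03 TPM, so little muscle RNA was in either group.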
